A study of Mus musculus with 18 samples.

Results

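Loss of Vhl was followed in 6 libraries of mouse oligodendrocyte progenitor cells (OPCs) kept in medium with DMSO, 3 from cells with a CRISPR edit of Vhl and 3 from cells with a CRISPR control, out of the 18 libraries of the series. The members are all DMSO libraries of the series, so no measured value chose them. The OPCs were derived from mouse epiblast stem cells and grown with Fgf2 and Pdgfa, and both groups stayed in DMSO medium for 14 hours before lysis in TRIzol. Novogene made and sequenced the libraries. A parallel arm received 300 nM of the MEK inhibitor AZD8330. Its 6 libraries enter here through the shared estimate of spread, and its Vhl effect is given for a few chosen genes at the end. The 6 remaining libraries, control and Vhl cells without DMSO, form a separate table and are given as a second comparison. The sources used here do not give which part of Vhl was edited or whether a line is 1 clone or a pool. The labels do not say that libraries lettered A, B and C are separate cultures. P-values therefore measure the spread between these libraries, which may be technical.

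OPCs divide in the developing and adult brain and give rise to the oligodendrocytes that myelinate axons. The VHL protein is the substrate-binding part of a ubiquitin ligase. It recognises HIF alpha subunits after prolyl hydroxylases (the EGLN enzymes) have used oxygen to hydroxylate them, and it sends them to the proteasome. Without VHL, HIF alpha stays bound to its partner ARNT at short DNA elements with the core RCGTG, where R is A or G. Its classical target genes move glucose through glycolysis, keep pyruvate out of mitochondria, remove mitochondria, and encode secreted signals such as VEGFA.

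Of 13460 genes tested in DMSO, 1851 (13.8%) were higher and 2492 (18.5%) lower in Vhl cells at an adjusted p under 0.05 (edgeR's quasi-likelihood test), which is 32.3% in either direction. A gene is said below to have risen or fallen only if it passed this test, and these shares are the background for the counts of each gene list. Large changes leaned the other way, since 486 genes (3.61%) rose and 104 (0.773%) fell by 2-fold or more. Of the 486, 152 had a control mean under 1 CPM (counts relative to the TMM-scaled library total) and 218 one between 1 and 10 CPM. Among the 8766 genes that reached a mean of 10 CPM in either group, 205 rose and 36 fell by 2-fold or more. All 3 Vhl libraries lay above all 3 controls for 19.5% of tested genes and below them for 25.3%. Scaling moved the split of the smaller changes. The median log2 change of all genes was −0.03 with TMM and 0.04 with plain library totals, and the calls went from 1851 rises and 2492 falls to 2343 rises and 1794 falls.

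**Figure D1:**
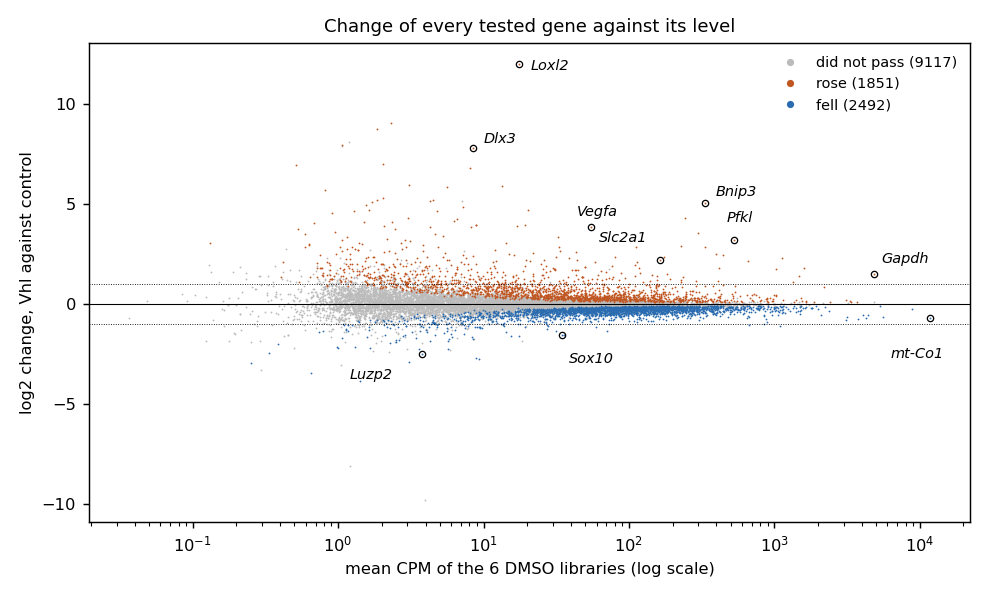
Each point is 1 of the 13460 tested genes, with its mean CPM over the 6 DMSO libraries on a log axis and its log2 change on the vertical axis, and dotted lines mark 2-fold. Most falls lie within 2-fold, whereas rises reach far above it; Loxl2 had 0 counts in all controls, so its plotted height depends on the prior count of the fit and is no bound.

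The 6 DMSO libraries held 12391077 to 16349676 estimated counts each, and the common dispersion of their table was 0.0161 against 0.144 in the untreated table. Genes of the mitochondrial genome took 5.22%, 4.99% and 4.51% of counts in controls A to C and 3.18%, 3.29% and 3.24% in Vhl A to C. Defining markers of microglia were near 0 (10 of 10 under 1 CPM, Trem2 at 0, summed level at most 2.14 CPM). Of 10 pluripotency markers, Pou5f1, Zfp42, Dppa5a and Utf1 were at 0 and the sum was 22.9 to 26.4 CPM in the controls and 20 to 25.2 CPM in the Vhl libraries. The mesenchymal sum was 10.4 to 14.9 and 12.3 to 15 CPM. OPC markers summed to 10610 to 10880 CPM in the controls and 12350 to 12560 CPM in the Vhl libraries, and all 20 were above 1 CPM.

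The targeted gene came first. Vhl mRNA measured 109, 107 and 102 CPM in controls A to C and 89.8, 92.9 and 93.8 CPM in Vhl A to C. The groups did not overlap, and the group labelled Vhl was the lower one, by little (log2 −0.20 ± 0.05, edgeR adjusted p = 0.00778). RNA counts over the whole gene do not show whether the edited allele still makes protein.

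Oxygen sensors separated by gene. Egln1 (chr8:124908587-124949324, minus strand, GRCm38), the main prolyl hydroxylase that hands HIF alpha to VHL, measured 144, 134 and 136 CPM in the controls and 726, 759.9 and 763 CPM in the Vhl libraries. Every Vhl library was more than 5-fold above every control (log2 2.44 ± 0.03, edgeR adjusted p = 1.36e-13). Egln3, another hydroxylase of this family, went from 34.7, 32.6 and 30.8 CPM to 124, 125 and 114 CPM (log2 1.88 ± 0.05), again without overlap. The third prolyl hydroxylase gene, Egln2, was near the detection limit and did not pass (2.6, 3.54 and 0.999 CPM against 0.318, 2.66 and 1.13 CPM). Hif1an, whose product hydroxylates an asparagine of HIF alpha, also did not pass, at 87.7, 83.7 and 91.4 CPM and 85.2, 80.1 and 84.8 CPM with overlapping groups. Of the HIF subunits, Hif1a mRNA fell from 330 ± 17.9 to 261 ± 9.14 CPM (log2 −0.34 ± 0.04), while Arnt (8.55 ± 4.33 to 5.42 ± 1.38 CPM) and its relative Arnt2 (197 ± 11.8 to 194 ± 5.34 CPM) did not pass. Epas1, which encodes HIF2 alpha, had 0 counts in all 6 libraries. Cited2, a HIF-induced protein that competes with HIF1A for its coactivators, rose from 20 ± 0.53 to 33.5 ± 3.35 CPM (log2 0.74 ± 0.10). In all, 3 of the 12 tested genes of this list rose and 3 fell, with a median log2 change of −0.05. The rises numbered 5 with plain library totals and 5 with a higher filter of 5 CPM.

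Glycolysis genes mostly rose and none fell. Of 15 tested enzymes 12 rose and 0 fell, with a median log2 change of 1.51 against −0.03 for all tested genes. Their summed level was 5734, 5580 and 5709 CPM in the controls and 16080, 16590 and 16560 CPM in the Vhl libraries, a ratio of 2.89. Phosphofructokinase commits sugar to the pathway. Its liver-type gene Pfkl (chr10:77986947-78010083, minus strand, GRCm38) measured 105, 102 and 107 CPM in the controls and 958, 959 and 952 CPM in the Vhl libraries, 9-fold apart with no overlap (log2 3.19 ± 0.05, edgeR adjusted p = 1.84e-13). The muscle-type gene Pfkm did not pass, at 371, 375 and 373 CPM and 373, 372 and 371 CPM (log2 0.00 ± 0.03), and the platelet-type gene Pfkp did not pass either (4.21 ± 0.276 to 5.04 ± 1.43 CPM). The 3 genes for this step thus differed from each other in their change.

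Tpi1, Gapdh and Pgam1, of later steps, were higher in every Vhl library than in every control. Tpi1, the triose isomerase, measured 373, 371 and 384 CPM and 1860.2, 1914 and 1880 CPM (log2 2.33 ± 0.04). Gapdh, which oxidises the triose and is often used as a reference gene, measured 2529, 2464 and 2529.6 CPM and 6912, 7236 and 7335 CPM (log2 1.51 ± 0.03). Pgam1, the phosphoglycerate mutase, measured 731, 701 and 689 CPM and 2419.6, 2532 and 2461 CPM (log2 1.81 ± 0.03). In these 3 genes the lowest Vhl library was more than 2-fold above the highest control. Gpi1, the isomerase of the first steps, rose from 811 ± 10.2 to 2165 ± 14.3 CPM (log2 1.42 ± 0.03), and Aldoc, the brain-type aldolase, from 599.8 ± 21.4 to 846 ± 43.6 CPM (log2 0.50 ± 0.04). Eno1b, an enolase gene, rose from 1563 ± 17.5 to 2807 ± 73.8 CPM (log2 0.84 ± 0.04), but 89% of its 31-base words also occur in other genes, chiefly Eno1, so the split between the 2 is uncertain. The corresponding share is 27.2% for Gapdh and 37.1% for Pgam1.

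Some genes that are usually abundant, several of glycolysis among them, had very low values in all libraries of this table. Their levels may hold only part of the genes' reads, and the cause was not tested. Outside glycolysis, 3 genes of protein folding, mitochondrial import and serine synthesis stood at no more than 1.36 CPM in any of the 6 libraries. A value at or near 0 here therefore does not show that a gene is silent. This holds for Egln2, Epas1, Cox4i2, Ndrg1 and cell type markers. These rows were picked after their values were seen. Ldha, the lactate dehydrogenase that HIF induces, measured 2.35, 0.602 and 3.5 CPM in the controls and 35.9, 33.7 and 25.9 CPM in the Vhl libraries. Hk1 measured 0.508, 0.0669 and 0.714 CPM and 15.5, 20.8 and 43 CPM, and Pgk1 0.698, 0.602 and 0.143 CPM against 1.91, 0.613 and 3.47 CPM. Ldha and Hk1 did not overlap between groups and rose (edgeR adjusted p = 1.1e-05 and 6.76e-05), and Pgk1 rose with little margin (log2 2.01 ± 0.69, edgeR adjusted p = 0.0406). Pkm, which makes pyruvate, measured 140.5, 128.7 and 129.3 CPM and 340.2, 301.7 and 372 CPM, more than 2-fold apart in every pair of libraries.

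Glucose and lactate transport changed through 4 genes, all of them above 2-fold, of 12 tested (1 fell). Slc2a1, the glucose carrier GLUT1, measured 58.6, 56.9 and 59.5 CPM in the controls and 271, 266 and 269 CPM in the Vhl libraries (log2 2.20 ± 0.04). Bsg, the chaperone that brings monocarboxylate transporters to the membrane, measured 479, 467 and 474 CPM and 1556, 1588 and 1593 CPM (log2 1.74 ± 0.03). Slc16a3, the lactate exporter MCT4, was low in controls (0.698, 0.936 and 1.64 CPM) and varied between Vhl libraries (23.4, 17.4 and 9.2 CPM), without overlap (log2 3.94 ± 0.36). Slc2a3, the carrier GLUT3, rose from near 0 (0, 0.134 and 0.214 CPM) to 1.99, 4.02 and 3.39 CPM (log2 4.70 ± 0.76).

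Branches around glycolysis moved in different directions. Glycogen and fructose bisphosphate control held 6 rises and 2 falls of 13. Gbe1, the glycogen branching enzyme, measured 27.7, 26.1 and 27.2 CPM and 192, 199 and 202 CPM, a rise of about 7-fold without overlap (log2 2.87 ± 0.05). Ppp1r3c, which targets a phosphatase to glycogen, rose from 125 ± 6.7 to 231 ± 7.35 CPM and Pfkfb3, which makes the activator of phosphofructokinase, from 36.6 ± 4.41 to 58.7 ± 4.19 CPM. Pygb, the brain glycogen phosphorylase, did not pass (log2 −0.08 ± 0.03). The pentose phosphate path had 1 rise (Pgd, log2 0.22 ± 0.04), 2 falls (Taldo1, log2 −0.14 ± 0.03, and Rpe, log2 −0.19 ± 0.07) and 5 of 8 not passing, among them the transketolase Tkt (log2 −0.05 ± 0.03). Neither fall passed with plain library totals. The Rpe fall was also lost without either of control A or B or Vhl A or C (edgeR adjusted p = 0.142, 0.141, 0.104 and 0.154).

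**Figure D2:**
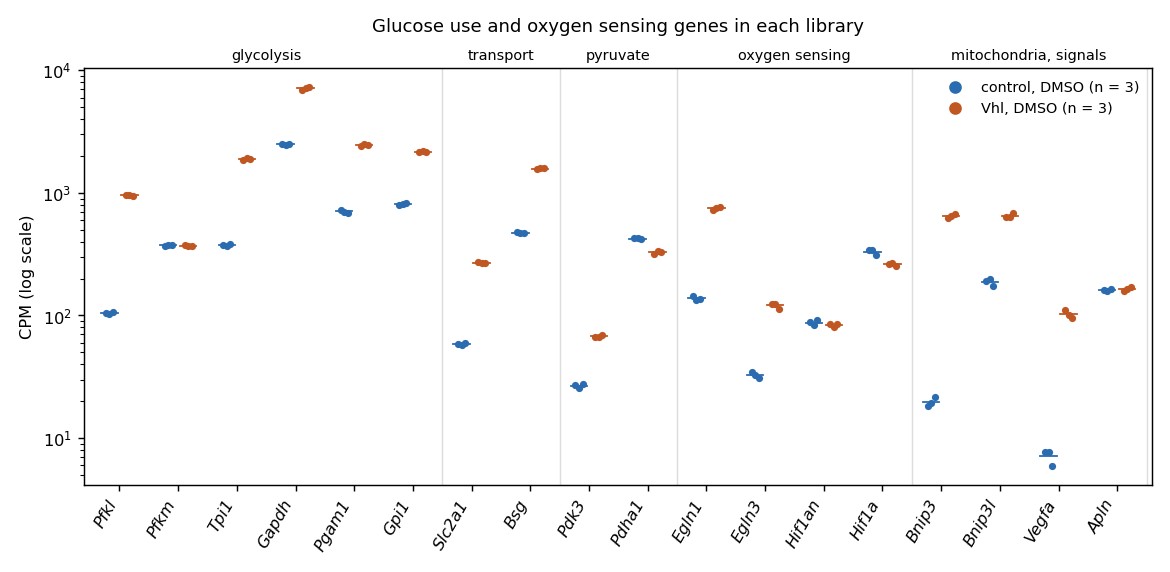
CPM on a log axis for each of the 3 control (blue) and 3 Vhl (orange) libraries in DMSO, with short lines at the group means, for genes of glycolysis, transport, pyruvate use, oxygen sensing, mitochondrial removal and secreted signals. The groups lie far apart for Pfkl, Tpi1, Egln1, Bnip3 and Vegfa and overlap for Pfkm, Hif1an and Apln.

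Entry of pyruvate into mitochondria fell in 8 and rose in 2 of 11 tested genes (median log2 −0.28). Pyruvate dehydrogenase kinases switch the entry enzyme off, and their genes differed: Pdk3 measured 27, 25.7 and 27.5 CPM in the controls and 67, 67.2 and 69.3 CPM in the Vhl libraries (log2 1.34 ± 0.06), whereas Pdk2 did not pass (36.4 ± 2.89 to 38.1 ± 2.21 CPM). Pdk1, a classical HIF target, is not analysed here. Pdha1, a catalytic subunit of the entry enzyme, measured 428, 426 and 418 CPM and 317, 334 and 331 CPM (log2 −0.37 ± 0.04), with no overlap. Dld, a shared subunit, fell from 234 ± 4.26 to 176 ± 7.31 CPM and Pdp2, the phosphatase that reverses the kinases, from 35.9 ± 1.49 to 22.7 ± 2.05 CPM (log2 −0.66 ± 0.07). The citric acid cycle followed with 13 falls and 1 rise of 19 (median log2 −0.36). Citrate synthase, Cs, measured 842, 852 and 818 CPM and 643, 629.9 and 648 CPM (log2 −0.39 ± 0.03). The succinate dehydrogenase genes Sdha and Sdhb fell by 0.40 and 0.36 on the log2 scale. Fh1 (14.5, 14.1 and 14.3 CPM and 7.48, 10.6 and 15.4 CPM) and Ogdh (11.1, 14.2 and 10.9 CPM and 7.17, 13.5 and 12.1 CPM) had overlapping groups and did not pass.

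Genes of mitochondrial removal contrasted with genes of mitochondrial build-up. Bnip3 (chr7:138890836-138909519, minus strand, GRCm38), a receptor that marks mitochondria for autophagy, measured 18.4, 19.3 and 21.6 CPM in the controls and 619, 651 and 679 CPM in the Vhl libraries. That is a rise of about 33-fold, the largest of any gene with both group means at 10 CPM or more outside unnamed gene models (log2 5.04 ± 0.06, edgeR adjusted p = 1.98e-14). Its relative Bnip3l went from 192, 197 and 175 CPM to 634, 635 and 682 CPM (log2 1.79 ± 0.05). Of Bnip3's 31-base words, 20.3% occur in another gene, chiefly a pseudogene with 0 CPM in both groups. The autophagy genes Wipi1 (log2 0.85 ± 0.07) and Map1lc3a (log2 0.54 ± 0.04) rose too, while Nbr1 and Bcl2l13 did not pass (log2 −0.12 ± 0.04 and log2 −0.08 ± 0.04). In total 9 of 27 genes of mitophagy and autophagy rose and 1 fell, with a median log2 change of 0.10.

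Transcripts of the mitochondrial genome were lower. Of its 13 protein genes 11 fell and 0 rose (median log2 −0.67), and their sum went from 50190 ± 4194 to 31550 ± 591 CPM, a ratio of 0.629. The oxidase subunit gene mt-Co1 measured 15416, 15062 and 13716 CPM in the controls and 8885, 9020 and 8933 CPM in the Vhl libraries (log2 −0.72 ± 0.04). The cytochrome b gene mt-Cytb measured 7217, 7042 and 6365 CPM and 4197, 4428 and 4344 CPM (log2 −0.67 ± 0.04), and mt-Nd5, of complex I, 4144, 4071 and 3525 CPM and 2214, 2263 and 2328 CPM (log2 −0.79 ± 0.05). Each Vhl library lay below each control for these 3 genes. The short genes mt-Atp8 and mt-Nd3 did not pass (log2 −0.29 ± 0.27 and log2 −0.27 ± 0.16). Nuclear copies of mitochondrial DNA share 63.9% of the 31-base words of mt-Co1, 98.1% of those of mt-Nd3 and 99.9% of those of mt-Co3. Single values there are therefore uncertain. The copy that shares most with mt-Nd3 had 594.9 CPM in controls and 444 CPM in Vhl cells by plain library totals. Fewer mitochondria per cell and less mitochondrial RNA per mitochondrion cannot be told apart in bulk RNA.

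Nuclear genes for the respiratory chain changed by less, with more falls than rises. Falls numbered 12 of 36 for complex I, 9 of 13 for complexes II and III, 4 of 15 for complex IV and 8 of 15 for complex V. The medians were −0.12, −0.30, −0.05 and −0.21. Of all tested genes 18.5% fell, with a median of −0.03, and the complex IV median lay close to that. Ndufa4, which now counts with complex IV although it was named for complex I, had the smallest p of the complex I list and measured 316, 311 and 310.4 CPM in the controls and 189, 197 and 182 CPM in the Vhl libraries (log2 −0.72 ± 0.04). Cyc1, the cytochrome c1 gene, measured 458, 457 and 457 CPM and 332, 324 and 309 CPM (log2 −0.51 ± 0.04). The ATP synthase gene Atp5g1 fell from 151 ± 1.74 to 105 ± 5.35 CPM (log2 −0.53 ± 0.05) and Cox5a from 203 ± 2.91 to 165 ± 2.09 CPM (log2 −0.30 ± 0.04). Uqcrq, Uqcr11, Cox6a1 and Atp5e did not pass, with log2 changes between −0.06 and 0.09. Cox7a1, an isoform known from muscle, rose from 0.762, 0.468 and 0.5 CPM to 4.54, 2.59 and 3.62 CPM (log2 2.61 ± 0.36). The isoform gene Cox4i2, which HIF is known to induce in other cells, had 0 counts in all 6 libraries. Lonp1, the HIF-induced protease that removes an oxidase subunit, measured 208, 207 and 213 CPM and 349, 332 and 314 CPM (log2 0.66 ± 0.04), the single rise among 27 genes of mitochondrial biogenesis and import, where 17 fell. Mitochondrial ribosomal proteins fell in 43 of 78 cases (median log2 −0.26) and rose in 1, for example with Mrps27 falling from 83 ± 5.7 to 54.8 ± 2.14 CPM and Mrpl12 from 171 ± 4.29 to 125 ± 9.27 CPM. Mrps21 and Mrps33 did not pass (log2 0.08 ± 0.05 and log2 0.04 ± 0.06).

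HIF core elements were counted in the promoters of the genes these results turn on. The windows below are the 250 bases before the RefSeq start site (GRCm38.p6, all on the minus strand), printed 5′ to 3′ in gene direction, with capitals at every match of ACGTG on either strand.
Bnip3: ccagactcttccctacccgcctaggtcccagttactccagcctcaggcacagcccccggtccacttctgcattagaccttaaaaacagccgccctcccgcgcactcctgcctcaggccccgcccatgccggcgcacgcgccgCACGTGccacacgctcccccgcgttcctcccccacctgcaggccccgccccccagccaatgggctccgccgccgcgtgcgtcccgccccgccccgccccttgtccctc
Egln1: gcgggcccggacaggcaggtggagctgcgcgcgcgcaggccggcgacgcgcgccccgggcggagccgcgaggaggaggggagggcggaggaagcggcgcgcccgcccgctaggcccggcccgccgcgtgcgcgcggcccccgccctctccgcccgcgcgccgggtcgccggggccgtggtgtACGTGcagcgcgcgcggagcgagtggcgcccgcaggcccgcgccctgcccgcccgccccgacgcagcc
Ascl2: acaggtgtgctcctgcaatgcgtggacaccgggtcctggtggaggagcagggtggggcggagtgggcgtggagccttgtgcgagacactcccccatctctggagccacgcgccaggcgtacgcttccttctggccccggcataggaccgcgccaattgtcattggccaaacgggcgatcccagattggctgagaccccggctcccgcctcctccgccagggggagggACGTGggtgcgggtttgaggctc
Pfkl: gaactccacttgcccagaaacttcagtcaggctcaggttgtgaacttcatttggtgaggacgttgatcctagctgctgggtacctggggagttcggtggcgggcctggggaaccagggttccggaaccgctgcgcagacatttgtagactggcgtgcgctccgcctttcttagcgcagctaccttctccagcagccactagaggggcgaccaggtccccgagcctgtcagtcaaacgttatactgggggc
They lie at chr7:138909507-138909756 (Bnip3), chr8:124949255-124949504 (Egln1), chr7:142969265-142969514 (Ascl2) and chr10:78009808-78010057 (Pfkl). The Bnip3 window holds the palindrome CACGTG, read as ACGTG on both strands, with the 2 overlapping matches starting 108 and 107 bases before the start site. Egln1 has 1 match 68 bases before it and Ascl2, a transcription factor gene, 1 match 23 bases before it, while Pfkl has none in this window. The other core, GCGTG, occurs on either strand 3 times in the Bnip3 and Ascl2 windows and 1 time in those of Egln1 and Pfkl. Windows for Dlx3 and Sox10 are not shown. Across 12634 windows of tested genes, 21.5% held ACGTG on either strand. The share was 25.7% of 444 windows of genes that rose 2-fold or more, 21.9% for smaller rises, 14.7% of 95 windows of genes that fell 2-fold or more, and 21.5% for genes that did not pass. GCGTG was in 44.7% of windows of tested genes and in 44.8% of those of genes that rose 2-fold or more. These are counts of letters, not of bound sites.

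Other genes known to answer low oxygen rose widely: 26 of 33 tested regulators of other function rose and 2 fell, with a median log2 change of 0.99, and 16 of the rises were 2-fold or more. Fam162a, a mitochondrial protein gene, measured 55.8, 54.2 and 53 CPM in the controls and 399.6, 395 and 414 CPM in the Vhl libraries (log2 2.89 ± 0.05). Higd1a, which binds the respiratory chain in low oxygen, measured 84.1, 79 and 79.9 CPM and 564, 593 and 614 CPM (log2 2.87 ± 0.05). Mt1, a metallothionein that binds zinc and copper, measured 109, 112 and 132 CPM and 617, 702 and 715 CPM (log2 2.52 ± 0.08). All 3 had a gap of more than 4-fold between the nearest libraries of the groups. Ero1l, the oxidase that forms disulfide bonds in the endoplasmic reticulum, rose from 56.7 ± 5.72 to 293 ± 6.66 CPM (log2 2.37 ± 0.06), and Ankrd37, a small ankyrin protein gene, from 0.662 ± 0.23 to 11.9 ± 0.735 CPM (log2 4.13 ± 0.25). Siah2, a ubiquitin ligase that acts on the EGLN enzymes, and Tpd52 did not pass (log2 0.19 ± 0.09 and log2 −0.09 ± 0.11). A2m, the protease trap alpha-2-macroglobulin, stood on no list and measured 48.3, 47.9 and 45.5 CPM and 543, 541 and 574 CPM (log2 3.55 ± 0.06). Phospho1, a phosphatase gene, rose from 12.2 ± 1.81 to 73.9 ± 4 CPM, but 87.1% of its 31-base words lie in the overlapping gene Zfp652.

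Secreted signals were mixed, with 6 rises and 2 falls of 17. Vegfa measured 7.62, 7.76 and 5.92 CPM in the controls and 112, 100.1 and 95.4 CPM in the Vhl libraries, the lowest Vhl library being more than 12-fold above the highest control (log2 3.84 ± 0.15). Mif, a cytokine, measured 244, 238 and 242 CPM and 1058, 1113 and 1052 CPM (log2 2.16 ± 0.03). Stc1, a secreted glycoprotein, measured 12.8, 13.4 and 14.3 CPM and 36.8, 34.5 and 38.8 CPM (log2 1.44 ± 0.08). Apln, a vessel-guiding peptide and known HIF target, did not pass here, at 161, 158 and 163 CPM and 159, 165 and 169.7 CPM with overlapping groups (log2 0.03 ± 0.06). Wnt7b, a Wnt ligand that acts on brain vessels, fell, from 268, 270.1 and 269.5 CPM to 172, 159.9 and 173 CPM (log2 −0.68 ± 0.03), and its relative Wnt7a did not pass (log2 −0.10 ± 0.04). Among the 4 tested receptors of VEGF, Flt1 (0.728 ± 0.442 to 8.54 ± 0.0828 CPM) and Kdr (3.29 ± 0.629 to 6.49 ± 0.665 CPM) rose at low levels, the coreceptor Nrp2 fell from 75.3 ± 4.95 to 49.6 ± 3.43 CPM, and Nrp1 did not pass (log2 −0.02 ± 0.09). Cdh5, Pecam1 and Cldn5, which define endothelial cells, were under 1 CPM, Cldn5 with 0 counts. Of the 10 endothelial and pericyte markers 7 were under 1 CPM and 2 were tested. The one that rose was Cspg4, also an OPC marker, and the list's sum was 272.9 to 282.4 CPM in the controls and 306.7 to 312.9 CPM in the Vhl libraries.

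Other oxygen-using enzymes changed as well. Of 17 collagen hydroxylases and lysyl oxidases with values, 11 were tested. Of these 11, 6 rose, all by 2-fold or more, and 2 fell. P4ha2 and Loxl2, under 1 CPM in the controls, met the filter only through other groups. Plod2, a lysyl hydroxylase, measured 48.2, 44.9 and 42.4 CPM in the controls and 124, 145 and 127 CPM in the Vhl libraries (log2 1.55 ± 0.06), and P4ha1, a prolyl hydroxylase subunit, 54.5, 48.6 and 52.5 CPM and 127, 122 and 108 CPM (log2 1.20 ± 0.11). Its relative P4ha2 was close to 0 in controls (0.0635, 0.0669 and 0.428 CPM) and measured 13.6, 9.13 and 10.5 CPM in the Vhl libraries. Loxl2, a lysyl oxidase, had 0 counts in all controls and 356, 632 and 457 counts in Vhl cells. That is 532-fold higher when the controls are set to a floor of 3 counts over the group. Of its 31-base words, 46.2% are shared with other genes, chiefly an unnamed gene model. By plain library totals that model had 0.246 CPM in controls and 0 CPM in Vhl cells. Control reads of Loxl2 may be counted there, so the fold is no firm lower bound. P3h2 and Plod1 did not pass. In the list of histone and DNA demethylases and related oxygenases, 10 of 22 genes rose and 1 fell. Jmjd6, named for its Jumonji domain, measured 59.7, 61.8 and 58.7 CPM and 168, 156 and 155 CPM (log2 1.41 ± 0.06). Kdm5b rose from 47.4 ± 2.67 to 85.6 ± 15.8 CPM, Kdm7a from 28.8 ± 0.772 to 47.2 ± 4.78 CPM and Kdm6b from 105 ± 4.28 to 154 ± 9.68 CPM. Kdm3a, a known HIF target, did not pass, with controls from 9.42 to 24.7 CPM (log2 0.93 ± 0.37, edgeR adjusted p = 0.0748). Without Vhl C the rises of that list numbered 6.

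Acid handling, growth control and iron showed isolated changes. Car9, the carbonic anhydrase most used as a marker of HIF activity, was below the filter and untested: controls had 0 counts and Vhl A, B and C had 21, 15 and 19, at least 20.3-fold higher at the same floor. Of 14 tested genes of acid handling, Car8 rose (5.19 ± 0.663 to 15.9 ± 1.27 CPM) and Car2 (74.5 ± 4.77 to 54.6 ± 2.03 CPM) and Car3 (81.7 ± 7.78 to 50.1 ± 1.88 CPM) fell, with 2 rises and 3 falls in all. Ddit4, a brake on the growth kinase mTORC1 that hypoxia induces, measured 95.3, 88.9 and 105 CPM and 256, 274 and 277 CPM (log2 1.48 ± 0.08). Sesn2 rose by little (log2 0.19 ± 0.05), and the other 9 tested brakes, Tsc2 and Sesn3 among them, did not pass. Ndrg1, widely induced by hypoxia, had 0 counts in controls and 5 counts in Vhl cells, all in Vhl C. Iron handling had 4 falls of 15 and 0 rises, with the ferritin gene Fth1 at 1156, 1126 and 1135 CPM and 896, 905 and 856 CPM (log2 −0.36 ± 0.03). DESeq2 and the plain library totals each called 1 rise in that list.

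Lipid genes had more falls than rises. Fatty acid synthesis and desaturation fell in 12 of 18 cases and rose in 0 (median log2 −0.37). Fasn, the fatty acid synthase, measured 1338, 1451 and 1334 CPM in the controls and 1038, 1010.5 and 981 CPM in the Vhl libraries (log2 −0.44 ± 0.04). Srebf1, the transcription factor that drives this pathway, measured 473, 477 and 503 CPM and 361, 369.9 and 367 CPM (log2 −0.40 ± 0.03). Fads1 and Acsl3 fell by 0.32 and 0.50 on the log2 scale, and Acaca, with controls from 30.7 to 56.9 CPM, did not pass. Without control C, 1 gene of this list rose. Among lipid droplet and fatty acid use genes 4 rose and 8 fell of 21 (5 fell with plain library totals). The droplet genes Hilpda, an inhibitor of lipolysis (11.7, 10.5 and 12.2 CPM to 28.3, 37.2 and 31.1 CPM, log2 1.49 ± 0.11), and Dgat2, which makes triglycerides (12.5, 12.6 and 15.6 CPM to 31.9, 38.5 and 42.2 CPM, log2 1.47 ± 0.12), rose without overlap. Cpt1a, the gate of fatty acid import into mitochondria, fell from 148 ± 5.26 to 91.6 ± 5.57 CPM (log2 −0.69 ± 0.05) and Acadl, a dehydrogenase of fatty acid oxidation, from 267 ± 11.1 to 162 ± 4.33 CPM (log2 −0.72 ± 0.04). Vldlr, a lipoprotein receptor, measured 43.9, 43.6 and 41.5 CPM and 179, 185 and 184 CPM (log2 2.09 ± 0.09). Apoe, the main lipid carrier of the brain, measured 94.2, 97.5 and 111 CPM and 43, 42.1 and 33.7 CPM (log2 −1.35 ± 0.10), without overlap.

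Among genes that make, fold and degrade proteins, falls outnumbered rises in most lists. Ribosome biogenesis fell in 20 of 34 cases and rose in 0 (median log2 −0.31). The nucleolar proteins Ncl (1686 ± 92.5 to 1314 ± 23.7 CPM) and Nop58 (234 ± 7.65 to 174 ± 4.57 CPM) were among the falls, and the polymerase factor Ubtf did not pass (log2 0.07 ± 0.07). Cytosolic ribosomal proteins fell in 28 of 83 cases and rose in 2 (median log2 −0.10), but the falls numbered 12 with plain library totals and 17 with the 6 DMSO libraries alone. Rps2 fell from 1606 ± 17.6 to 1221 ± 41.8 CPM and Rpsa from 2199 ± 27.4 to 1819 ± 47.1 CPM; for Rps2, 48.8% of words are shared. Cytosolic tRNA synthetases fell in 10 of 20 cases (Aars log2 −0.33 ± 0.04, Wars log2 −0.34 ± 0.04) and rose in 0, and Qars did not pass (log2 −0.03 ± 0.20). The ATF4 program, which answers amino acid shortage, had 6 rises and 7 falls of 24. Its mitochondrial folate genes diverged, with Mthfd1l at 100, 111 and 100.2 CPM and 215, 206 and 202 CPM (edgeR adjusted p = 1.47e-08) and Mthfd2 at 105, 100.5 and 92.4 CPM and 60.8, 54.1 and 53.4 CPM (log2 −0.82 ± 0.06). Shmt2 fell with Mthfd2 (log2 −0.60 ± 0.05), and Atf4 itself did not pass (log2 −0.07 ± 0.04).

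Chaperones of the endoplasmic reticulum fell in 11 of 20 cases and rose in 1, which was Ero1l. Sdf2l1 measured 90.1, 83.6 and 75.9 CPM in the controls and 52.8, 49.1 and 46.8 CPM in the Vhl libraries (log2 −0.75 ± 0.07), and Pdia4, a disulfide isomerase, fell from 511 ± 33.7 to 339 ± 29.1 CPM (log2 −0.60 ± 0.06). Atf6 and Dnajb9, which belong to the sensing and response arms of this system, did not pass (log2 −0.03 ± 0.05 and log2 0.04 ± 0.06). Heat shock and cytosolic chaperones fell in 10 of 20 cases and rose in 2, with the chaperonin gene Cct2 going from 1294 ± 26.7 to 993 ± 16.7 CPM and Hspa4 from 794 ± 26.1 to 590.2 ± 3.8 CPM. The proteasome fell in 22 of 39 cases and rose in 1 (median log2 −0.23), for example Psmd1 (log2 −0.41 ± 0.03) and Psmc2 (log2 −0.40 ± 0.04). Antioxidant genes went both ways, 5 up and 9 down of 24. Txn1, thioredoxin, measured 798, 805 and 775 CPM and 538, 538 and 507 CPM (log2 −0.59 ± 0.05), whereas Gclc, the first enzyme of glutathione synthesis, rose from 84.8 ± 3.01 to 113 ± 2.43 CPM (log2 0.42 ± 0.04). The antioxidant rises numbered 3 without control A, Vhl B or Vhl C. Lysosomal genes rarely passed (1 rise, Ctsa, log2 0.44 ± 0.05, and 4 falls of 25), and 1 fall was left with plain library totals.

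**Figure D3:**
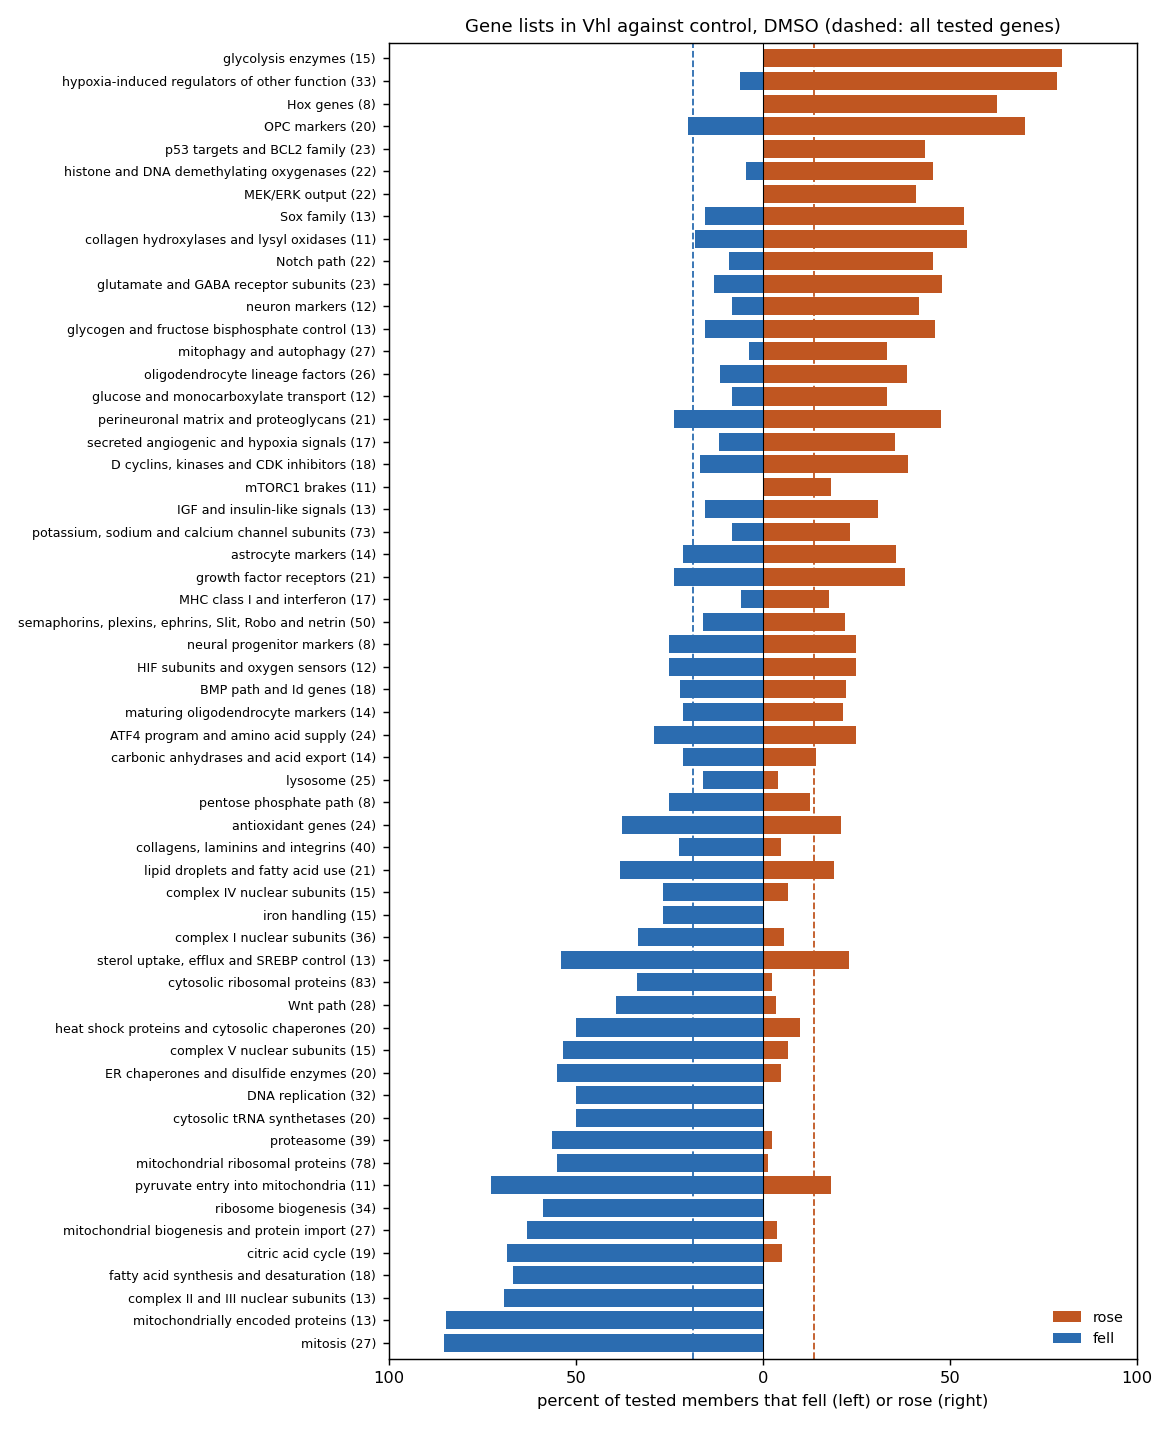
For each gene list with at least 8 tested members (number in brackets), bars show the percent that rose (right, orange) or fell (left, blue) in Vhl against control in DMSO, and dashed lines mark the 13.8% and 18.5% of all tested genes. Glycolysis and hypoxia-induced genes sit at the top, and mitosis and mitochondrially encoded proteins at the bottom.

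OPC markers changed in both directions. Of 20 OPC markers 14 rose and 4 fell, with a median log2 change of 0.28; the falls were Sox10, Luzp2, Matn4 and Neu4, the last pair named here after their values were seen (log2 −1.63 and −1.37). Sox10, the factor needed for the myelin program, measured 47.8, 55.3 and 50.5 CPM in the controls and 20.2, 17.4 and 15.5 CPM in the Vhl libraries, without overlap (log2 −1.53 ± 0.10, edgeR adjusted p = 2.41e-07). Its close relatives did not follow: Sox8 did not pass (317, 312 and 307 CPM and 321, 326 and 339 CPM), and Sox9, which glial precursors and astrocytes share, rose from 231, 233 and 232 CPM to 430.2, 436 and 437 CPM (log2 0.91 ± 0.03). The lineage factor Olig1 did not pass (3045, 3031 and 3329 CPM and 3243, 3364 and 3241 CPM), and Olig2 rose from 1325 ± 43.7 to 1495 ± 14.4 CPM (log2 0.17 ± 0.03). In bulk samples, fewer cells of a type and less RNA per cell cannot be told apart.

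Pdgfra, the receptor for the Pdgfa in the medium, measured 30.7, 30.6 and 43.8 CPM in the controls and 63.2, 63 and 65.6 CPM in the Vhl libraries; control C stood above the other controls but below every Vhl library (log2 0.87 ± 0.13). Tnr, a matrix protein, measured 33.1, 40.4 and 33 CPM and 76.3, 90.4 and 90.3 CPM (log2 1.27 ± 0.08), and Lhfpl3 116, 109.7 and 100.2 CPM and 195, 199 and 207 CPM (log2 0.88 ± 0.05). Cntn1, an axonal contact protein that OPCs also express, rose from 430 ± 8.14 to 648 ± 20.8 CPM, the proteoglycan genes Cspg5 from 853 ± 17.6 to 1149 ± 8.25 CPM and Vcan from 370.3 ± 8.11 to 467 ± 11.4 CPM. Cspg4, which encodes NG2, rose by 0.16 on the log2 scale. Gpr17, a receptor of committed precursors, did not pass (log2 0.09 ± 0.04). Luzp2 went the other way, from 6.41, 6.02 and 6.85 CPM to 1.04, 1.02 and 1.36 CPM (log2 −2.49 ± 0.15).

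The largest falls at 10 CPM or more were in genes of varied function. Plxnb3, a semaphorin receptor known from oligodendrocytes, measured 56.9, 48 and 55 CPM in the controls and 16.8, 18.2 and 19.4 CPM in the Vhl libraries (log2 −1.55 ± 0.09). Gjc3, a connexin of myelinating glia, measured 47.1, 44.9 and 42.8 CPM and 16.6, 20.2 and 16.1 CPM (log2 −1.35 ± 0.08). Gli3, a repressor of Hedgehog target genes, measured 38.4, 42.1 and 35.4 CPM and 14.8, 17 and 17.2 CPM (log2 −1.24 ± 0.09). None of these groups overlapped. Lgals1, a galectin, fell from 908 ± 27.7 to 429.9 ± 31.6 CPM (log2 −1.08 ± 0.05), Sel1l3 from 82 ± 3.45 to 37.4 ± 3.75 CPM (log2 −1.13 ± 0.07) and Tgif2, a repressor in the TGF-beta path, from 26.6 ± 3.85 to 12.1 ± 3.27 CPM (log2 −1.14 ± 0.23). Of 6 tested Schwann and neural crest markers 4 fell and 0 rose, and their sum went from 297.2 to 300.7 CPM in controls to 188.2 to 202.4 CPM in Vhl cells. Erbb3, the neuregulin receptor, measured 6.54, 9.16 and 11.3 CPM and 2.95, 2.38 and 2.04 CPM (log2 −1.87 ± 0.21), and Cdh19 6.16, 8.43 and 5.5 CPM and 1.91, 2.32 and 1.36 CPM (log2 −1.84 ± 0.26). Sox10 is on that list too, and Egr2, Foxd3, Ngfr and Tfap2a were under 1 CPM.

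Maturing oligodendrocyte markers had 3 rises and 3 falls of 14 tested, with a median log2 change of −0.28. Cnp rose from 130 ± 2.32 to 162 ± 6.01 CPM and Bcas1 from 76.8 ± 5.56 to 98.2 ± 4.96 CPM, both by less than 1.5-fold, and Cldn11 rose from 1.52, 0.802 and 0.857 CPM to 3.11, 4.22 and 4.15 CPM. The falls were Gjc3, given above, and a pair of genes under 10 CPM. Mog, Mag, Ermn, Mal, Ugt8a, Enpp6 and Gjb1 were under 1 CPM in these cells. The list's sum was 401.7 to 413.9 CPM in the controls and 415.5 to 442.4 CPM in the Vhl libraries. With the 6 DMSO libraries alone, or without control B, 1 of the falls was called.

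**Figure D4:**
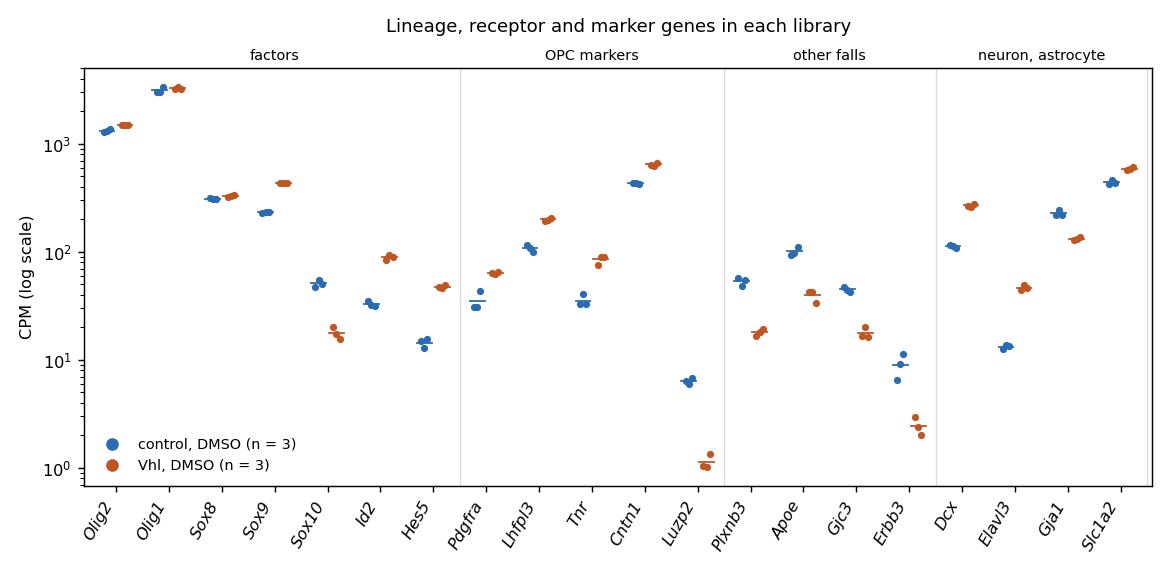
CPM on a log axis in each of the 3 control (blue) and 3 Vhl (orange) libraries in DMSO, with short lines at the group means, for lineage factors, OPC markers, further genes that fell, and neuron and astrocyte markers. Sox10, Luzp2, Plxnb3 and Erbb3 are lower and Sox9, Id2, Hes5, Tnr and Elavl3 higher in all Vhl libraries, while Sox8 and Olig1 differ little.

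Factors of the Id and Hes families differed among themselves. Id2, an inhibitor of basic helix-loop-helix factors, measured 34.9, 32.2 and 31.8 CPM in the controls and 84.7, 93.3 and 90.2 CPM in the Vhl libraries (log2 1.44 ± 0.06). Hes5, a Notch effector, measured 14.9, 13 and 15.6 CPM and 47.7, 45.9 and 49.9 CPM (log2 1.73 ± 0.08). Id4, at a low level, rose from 3.74, 3.95 and 3.57 CPM to 6.69, 7.02 and 6.34 CPM (log2 0.83 ± 0.10), and its relative Id1 did not pass (log2 −0.24 ± 0.11). Sall1 fell from 192 ± 6.69 to 136 ± 3.94 CPM. Of 26 lineage factors 10 rose and 3 fell. In the Sox family 7 of 13 rose and 2 fell: Sox4 (log2 0.45 ± 0.05), Sox6 (log2 0.42 ± 0.04) and Sox2 (log2 0.24 ± 0.04) rose and Sox1 fell (log2 −0.34 ± 0.07). Of 8 tested Hox genes 5 rose and 0 fell, Hoxa7 from 5.65, 6.62 and 5.78 CPM to 17.8, 17.2 and 20.7 CPM (log2 1.63 ± 0.18). Without any 1 of Vhl A, control B or control C the Hox rises numbered 3. Genes at or near 0 in the controls rose as well. Dlx3, a homeobox gene, had 0, 2 and 1 counts in controls and 225, 243 and 213 in Vhl cells, a ratio of 250.7 (95% counting interval 85.4 to 1219). Ascl2 measured 0.381, 0.0669 and 0.214 CPM and 7.88, 8.24 and 8.83 CPM (log2 5.17 ± 0.59).

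Neuron markers rose in 5 of 12 tested cases and fell in 1 (median log2 0.33), with a sum of 1229 to 1285 CPM in the controls and 1695 to 1822 CPM in the Vhl libraries. Dcx, a microtubule protein of young neurons, measured 116, 113 and 109 CPM and 267, 262 and 278 CPM (log2 1.25 ± 0.04), and Elavl3, an RNA-binding protein, 12.6, 13.8 and 13.3 CPM and 44.5, 49.7 and 46 CPM (log2 1.82 ± 0.07). Map2 rose from 859 ± 21.8 to 1182 ± 64.3 CPM and Nefl from 6.5 ± 1.17 to 16.1 ± 1.11 CPM, while Tubb3 and Ina did not pass (log2 0.20 ± 0.08 and log2 −0.01 ± 0.07). Syt1 was at 0 and Stmn2, Slc17a6 and Gad2 were under 1 CPM, so 4 of 16 listed genes that define neurons were near or at 0. Of these untested genes, Gad2 had 1 count in the controls and 37 in the Vhl libraries. Stmn2 (17 and 10 counts) and Slc17a6 (5 and 3 counts) went the other way. Astrocyte markers rose in 5 and fell in 3 of 14 cases, with a sum of 2076 to 2153 CPM in the controls and 2630 to 2661 CPM in the Vhl libraries. Gja1, the main astrocyte connexin, fell from 219, 246 and 221 CPM to 130.2, 131 and 137 CPM (log2 −0.79 ± 0.05), and Slc1a2, a glutamate carrier, rose from 442 ± 21.2 to 589.9 ± 19.6 CPM (log2 0.42 ± 0.04). Neural progenitor markers summed to 2133 to 2167 CPM and 2120 to 2152 CPM. The part of other cell types in the changes of the receptor, channel and matrix genes below was not tested.

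Receptors for growth factors rose in 8 and fell in 5 of 21 cases. Kit, the stem cell factor receptor, measured 49.9, 52 and 51.4 CPM in the controls and 89.7, 94.5 and 89.7 CPM in the Vhl libraries (log2 0.84 ± 0.05). Ntrk2, the BDNF receptor, rose from 274 ± 3.29 to 362 ± 4.79 CPM, and Igf1r from 185 ± 4.01 to 222 ± 8.82 CPM. Fgfr2 fell from 41.7, 44.1 and 42.8 CPM to 26, 24.7 and 29.4 CPM (log2 −0.68 ± 0.07), whereas Fgfr1, for the Fgf2 in the medium, did not pass (log2 0.02 ± 0.06). Tyro3 fell from 103 ± 0.707 to 67.7 ± 3.29 CPM. Insulin-like signals had 4 rises and 2 falls of 13. Igfbp5, which binds IGF outside the cell, measured 240, 249 and 272 CPM and 508, 558 and 621 CPM (log2 1.15 ± 0.06), and the RNA-binding proteins Igf2bp3 (log2 −0.70 ± 0.06) and Igf2bp2 (log2 −2.73 ± 0.45) fell.

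Genes for excitability rose more often than they fell. Glutamate and GABA receptor subunits rose in 11 and fell in 3 of 23 cases (median log2 0.41). Grik3, a kainate receptor subunit, measured 83, 84.9 and 89.6 CPM and 184, 190.4 and 203 CPM (log2 1.17 ± 0.05). Gria2, the AMPA receptor subunit that limits calcium entry, measured 114, 118 and 101 CPM and 226, 207 and 206 CPM (log2 0.94 ± 0.07). Gabrg1 fell from 105 ± 4.9 to 68.4 ± 1.47 CPM, and Grm5 and Grik5 did not pass (log2 −0.15 ± 0.06 and log2 −0.01 ± 0.04). Without control A the falls of this list numbered 1. Of 73 potassium, sodium and calcium channel subunits 17 rose and 6 fell, and 9 rises were 2-fold or more. The potassium channel gene Kcnd2 (108, 117 and 103 CPM to 178, 174 and 177 CPM, log2 0.69 ± 0.04) rose without overlap. Kcnj10, the inward rectifier of glia, fell from 145, 139.7 and 135 CPM to 72.8, 79.2 and 83.9 CPM (log2 −0.83 ± 0.05), and its partner Kcnj16 did not pass (log2 −0.03 ± 0.04).

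Matrix and guidance genes were mixed. Perineuronal matrix and proteoglycan genes rose in 10 and fell in 5 of 21 cases (3 falls with the 6 DMSO libraries alone). Has2, a hyaluronan synthase, rose from 0.762, 0.802 and 1.07 CPM to 6.21, 6.61 and 7.39 CPM (log2 2.93 ± 0.16), and the abundant Ncan and Sdc3 did not pass (log2 0.04 ± 0.03 and log2 −0.02 ± 0.03). Collagens, laminins and integrins had 2 rises and 9 falls of 40, among them Col9a3 (45 ± 1.9 to 22.1 ± 1.19 CPM), Lama5 (357 ± 18.9 to 250.2 ± 4.71 CPM) and Itga6 (195 ± 6.75 to 141 ± 8.23 CPM). Itga7 rose from 12.1 ± 1.08 to 23.6 ± 2.35 CPM. The rises of that list numbered 4 with plain library totals and 1 without Vhl C. Guidance genes rose in 11 and fell in 8 of 50 cases. Besides Plxnb3, Sema4b fell (log2 −0.50 ± 0.05), and Sema4g (3.62, 4.88 and 4.85 CPM to 18.9, 19.9 and 20.9 CPM) and Robo1 (log2 0.49 ± 0.05) rose.

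Signalling paths moved in different directions. The Notch path rose in 10 and fell in 2 of 22 cases. Nrarp, a feedback target, measured 113, 116 and 116 CPM in the controls and 189, 180 and 183 CPM in the Vhl libraries (log2 0.67 ± 0.04), and Hey2 2.6, 3.01 and 3.57 CPM and 7.96, 11.2 and 11.4 CPM (log2 1.74 ± 0.16). Among the receptors, Notch2 fell (log2 −0.53 ± 0.05) and Notch1 and Notch3 did not pass (log2 0.09 ± 0.05 and log2 0.01 ± 0.04). The Wnt path fell in 11 of 28 cases and rose in 1 (median log2 −0.23), for example the receptor genes Fzd2 (75.8 ± 4.43 to 53.8 ± 2.97 CPM) and Fzd5 (33.4 ± 0.957 to 19.9 ± 0.695 CPM) and the secreted inhibitor Sfrp1 (64.2 ± 5.55 to 42.6 ± 0.878 CPM). The BMP path had 4 rises, Id2, Id4 and Bmp7 (log2 0.36 ± 0.04) among them, and 4 falls of 18. Output genes of MEK and ERK rose in 9 and fell in 0 of 22 cases. Ccnd1, the cyclin that growth factors induce, measured 677, 702 and 699 CPM and 893, 898 and 864 CPM (log2 0.35 ± 0.03), and Jun rose from 254 ± 7.97 to 317 ± 6.97 CPM. Dusp6 and Myc were among the 13 genes of this list that did not pass (log2 −0.11 ± 0.04 and log2 0.08 ± 0.03). They do not stand for the other direct readouts of the path, which are not reported here gene by gene. DESeq2 called 1 fall in that list, as did the fit without Vhl C.

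Many genes of mitosis and DNA replication fell and none rose, and those of G1 control were mixed. Of 27 mitosis genes 23 fell and 0 rose (median log2 −0.49), and their sum went from 5375 ± 416.6 to 3675 ± 170 CPM. Plk1, a mitotic kinase, measured 202, 204 and 163 CPM in the controls and 108, 106 and 98.1 CPM in the Vhl libraries (log2 −0.87 ± 0.08), and Bub1b, of the spindle checkpoint, 187, 175 and 162 CPM and 95.1, 90.1 and 107 CPM (log2 −0.84 ± 0.08). Control C lay between the other controls and the Vhl libraries for both. Aurka fell from 93.5 ± 6.01 to 57.1 ± 5.53 CPM, and Birc5 and Nusap1, at low levels, did not pass (log2 −0.02 ± 0.25 and log2 −0.49 ± 0.25). Genes of DNA replication had 16 falls and 0 rises among 32 (median log2 −0.39). Tk1, thymidine kinase, measured 148, 162 and 148 CPM and 99.9, 90.7 and 76.3 CPM (log2 −0.78 ± 0.08), and Rrm1 fell from 509.6 ± 25.3 to 365 ± 26.7 CPM (log2 −0.48 ± 0.05). The drivers and brakes of G1 moved otherwise, with 7 rises and 3 falls of 18. Cdkn1a, the inhibitor p21, measured 163, 165 and 166 CPM and 302, 299 and 289 CPM (log2 0.85 ± 0.05), while Ccnd3 (log2 0.51 ± 0.04) and Cdk6 (log2 0.65 ± 0.07) also rose and Cdk4 did not pass (log2 0.39 ± 0.16). The falls of that list numbered 5 with the 6 DMSO libraries alone.

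Targets of p53 and the BCL2 family rose in 10 and fell in 0 of 23 cases (median log2 0.19). Gadd45g, a growth arrest gene, measured 13.8, 13.6 and 14.5 CPM and 43.9, 44.8 and 41.9 CPM (log2 1.64 ± 0.07). Bcl2l11, the death factor BIM, rose from 23.8 ± 1.2 to 39.9 ± 2.9 CPM (log2 0.74 ± 0.07) and Phlda3 from 51.6 ± 3.55 to 80.7 ± 7.02 CPM. Trp53 itself and the survival gene Bcl2 did not pass (log2 0.13 ± 0.19 and log2 0.05 ± 0.09). MHC class I and interferon genes had 3 rises and 1 fall of 17: H2-D1 (10.3, 9.83 and 9.64 CPM to 20, 21.7 and 22.1 CPM), H2-T23 (0.508, 0.736 and 0.5 CPM to 3.58, 5.79 and 5.05 CPM) and H2-K1 (3.68, 0.535 and 2.78 CPM to 38.5, 33.5 and 36.9 CPM) rose without overlap. These 3 share 22.8% to 26.7% of their 31-base words with other genes of the family, and B2m, the common light chain, did not pass (log2 −0.04 ± 0.07).

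The untreated libraries share no library with the DMSO comparison and were set beside it for the same genes. On their own they passed for 2 of 13569 tested genes (0.0147%), while 1267 had an unadjusted p under 0.05 (edgeR's quasi-likelihood test). Vhl A weighed on that count: without it 439 genes changed, and without both A libraries 606. It was 0 without Vhl B or any 1 control. Of 486 genes that rose 2-fold or more in DMSO, 453 were tested in the untreated table. Of these, 82.3% were higher in untreated Vhl cells, where 55.3% of all shared genes were higher. Of genes that rose by less, 63.9% were higher. Of 92 genes that fell 2-fold or more in DMSO, 66.3% were lower in untreated Vhl cells, and of 2384 that fell by less, 53%, against 44.7% of all shared genes. Without both A libraries these shares were 86.4%, 65.1%, 71.3% and 64.5%, with 50.6% of all shared genes lower. The filter of 1 CPM bears on all these shares. A gene near 0 in either untreated group was tested only if the other group was higher. How far this moved the shares was not tested.

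The medians of glycolysis and of hypoxia-induced regulators had the same sign in both experiments, and that of mitosis had opposite signs. The glycolysis median was 1.51 in DMSO and 2.62 in untreated cells, and that of hypoxia-induced regulators 0.99 and 1.03. Tpi1 had an untreated log2 change of 3.56 (3.93 without both A libraries), Bnip3 of 4.47 (4.81) and Plod2 of 2.68 (2.94). Apln, which did not pass in DMSO, had an untreated log2 change of 2.53 (3.08 without both A libraries), with 14.9, 8.65 and 7.48 CPM in the controls and 41.9, 72.2 and 64.4 CPM in Vhl A to C. The mitosis median was −0.49 in DMSO and 0.72 in untreated cells, where 26 of 27 genes were above 0, and it was 0.86 without both A libraries. The summed levels of these genes overlapped between the untreated groups. They were 2538, 1240 and 1223 CPM in controls A to C and 2601, 2263 and 2876 CPM in Vhl A to C. HIF subunits and oxygen sensors had medians of −0.05 and 0.26, mitophagy and autophagy 0.10 and −0.03, and the drivers and brakes of G1 0.18 and 0.21. DNA replication had medians of −0.39 and 0.27, the latter −0.04 without both A libraries. OPC markers had medians of 0.28 and −0.30, the latter −0.05 without both A libraries. The Sox family had medians of 0.21 and −0.32, the latter −0.36 without both A libraries. Astrocyte markers had medians of 0.22 and −0.12, the latter −0.29 without both A libraries. The medians of neuron markers (0.33 and 0.06) and of oligodendrocyte lineage factors (0.125 and 0.15) were above 0 in both experiments. Mitochondrially encoded proteins had medians of −0.67 and −0.15, the latter −0.41 without both A libraries. Nuclear subunits of complex I had medians of −0.12 and 0.12, the latter −0.69 without both A libraries. Their untreated sums were 1594, 1884 and 1727 CPM in controls A to C and 3265, 1301 and 1017 CPM in Vhl A to C. Only Vhl A lay above the controls. These differences between the 2 experiments were not tested, since the tables were made separately.

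**Figure D5:**
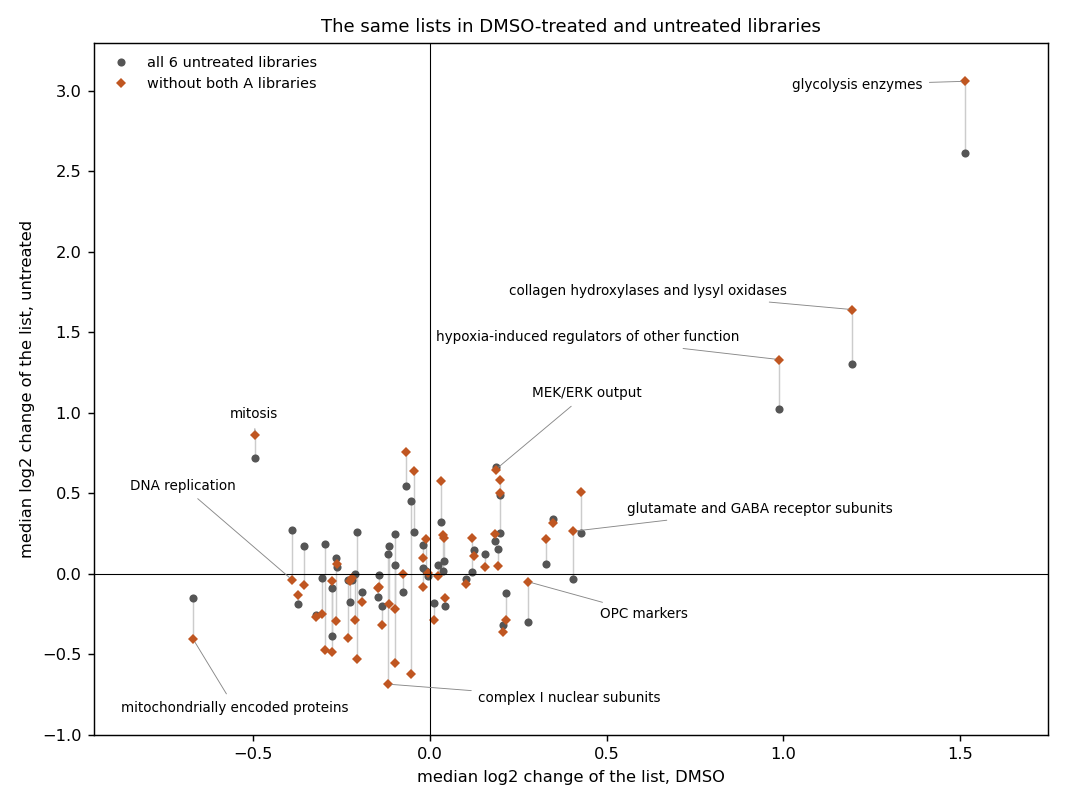
Each gene list is placed by its median log2 change in DMSO (horizontal) and in untreated cells (vertical), with all 6 untreated libraries (grey circles) and without both A libraries (orange diamonds), joined by a line. Glycolysis lies far above 0 on both axes (1.51 and 2.62), and mitosis is below 0 in DMSO and above 0 in untreated cells.

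The size of the Vhl effect was compared with that in the AZD8330 arm for 21 chosen genes by the interaction term of the shared fit, and 8 passed. Egln1 rose by more in AZD8330 (log2 3.20 against 2.44, edgeR adjusted p for the difference = 1.68e-06), as did Slc2a1 (2.52 against 2.20, edgeR adjusted p for the difference = 0.00137) and P4ha1 (1.81 against 1.20, edgeR adjusted p for the difference = 0.0176). Bnip3 rose by less (4.67 against 5.04, edgeR adjusted p for the difference = 0.00717). For Sox10 the effects were −1.65 and −1.53, and the difference of −0.12 ± 0.14 did not pass (edgeR adjusted p = 0.669).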

How the data were processed

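RNA was sequenced from 18 libraries of mouse OPCs, and the 6 DMSO libraries are compared here. Per the submitters' processing notes, Salmon 0.14.1 and the mouse build mm10 were used. The deposited tables are labelled TPM, but their values are estimated counts from the authors: library totals differ, and 58.8% of values above 0 are whole within 0.001. Each table has 54279 rows, of which 26 carry a date in place of a gene symbol and are not named. The annotation, strandedness and summing to genes are not stated. The estimated counts were rounded and tested with edgeR 4.0.16 (R 4.3.3): TMM, a minimum of 1 CPM on average across the 12 drug experiment libraries, 1 fit of its 4 groups with 8 residual degrees of freedom, quasi-likelihood tests, and Benjamini-Hochberg adjustment over all tested genes at 0.05. Log2 changes carry approximate standard errors, and CPM means carry SDs over n = 3 libraries. Each standard error is the absolute log2 change divided by the square root of the F statistic. For genes near 0 it depends on the prior count of the fit. The untreated table was fitted alone in the same way. Its 2 mean columns entered no comparison, and the authors' deposited Vhl mean equals, within 3.33e-05, the mean of control B, control C and Vhl A, not of the 3 Vhl libraries.

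The comparison and the gene lists were chosen with earlier results of these data known. The text names the 8 rises and 8 falls with the largest log2 change (both group means at least 10 CPM, no overlap), the 8 and 8 with the largest difference in mean CPM, from each list up to 4 changed members with the smallest p and up to 2 abundant members that did not pass, and chosen genes, chiefly of the HIF path and the lineage. Unnamed gene models were left out, and some genes the rule names are not reported here. Positions come from GENCODE M21 (GRCm38), promoter windows from RefSeq (GRCm38.p6), which held 9842 of 13459 tested gene names, and shares of 31-base words from the GENCODE transcripts. Same-letter libraries of the 2 groups had deviations correlated at 0.0238, 0.0354 and 0.0528, so the letters were not treated as pairs. The scripts were tested on simulated data. Alternatives used limma 3.58.1, DESeq2 1.42.0, other scalings, filters and left-out libraries.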

Additional observations from a re-analysis of the deposited data

Results flagged for a closer look

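For 8 of 21 chosen genes the Vhl effect differed between the AZD8330 and DMSO arms (interaction term of the shared edgeR fit, adjusted over all tested genes). The difference, AZD8330 minus DMSO on the log2 scale, was 0.76 for Egln1 (adjusted p = 1.68e-06), 0.83 for Egln3 (2.72e-05) and 0.82 for Vegfa (0.0373). It was 0.32 for Slc2a1 (0.00137) and 0.61 for P4ha1 (0.0176). It was −0.37 for Bnip3 (0.00717), −0.16 for Sox9 (0.0349) and −0.27 for Vhl (0.0242). Thus 5 of these hypoxia genes rose by more under AZD8330 and Bnip3 by less.

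Among the 246 genes chosen by the naming rule that passed in DMSO, 5 lay the opposite way in untreated cells. Their groups did not overlap in either experiment. This difference was not tested, and changed genes outside the 246 were not searched for it. Pdgfra, higher in DMSO Vhl cells, had an untreated log2 change of −0.48 (−0.16 without both A libraries), with 258, 188 and 173 CPM in controls against 119, 155 and 169.5 CPM in Vhl A to C. Id4 had an untreated change of −1.54 (37.5, 54.7 and 52.9 CPM against 22.6, 13.9 and 13.4 CPM). Sox2 had one of −0.3 (437, 517 and 481 CPM against 421, 414 and 332 CPM). Prc1, a mitosis gene that fell in DMSO, had one of 0.76 (82.3, 49.9 and 48.9 CPM against 118, 95.7 and 92.2 CPM), and Suclg2, of the citric acid cycle, one of 0.45 (109, 90 and 92.1 CPM against 149.8, 127 and 120.2 CPM).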

How the results depend on the processing

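The count of 4343 genes changed in DMSO stayed between 3625 and 4418 in every alternative run, 3 of them with another tool. The share of rises among the calls was 42.6%, and it was 56.6% with plain library totals, 52.3% with a filter of 5 CPM and 48.8% with the 6 DMSO libraries alone. The 590 changes of 2-fold or more numbered 329 with the filter of 5 CPM and 383 with limma and a pseudocount of 1, 821 with no filter, and 558 to 592 without any 1 library. A replicate block gave 4218 and 587. Its letters are not stated to be pairs, although each library correlated best with its own letter. Of 246 genes chosen by the naming rule that passed, 239 passed in every alternative, none reversed, and Ctsb, Hoxb4, Naglu, Rpe, Slc11a2, Slc4a4 and Taldo1 were lost in at least 1, 5 of them without a single library. The untreated count of 2 went to 0 to 439 without any 1 library, to 606 without both A libraries and to 0 with the replicate block. The interaction calls numbered 7 with a replicate block and 9 with plain library totals, both added after seeing the data. Differences above 0 numbered 5 of the 8 calls in the main fit, 4 of the 7 and 4 of the 9. Low levels limit what can be seen: 152 of the 486 rises of 2-fold or more start under 1 CPM.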

Other observations

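Some abundant transcripts outside the gene lists differed between the groups by many counts. Malat1, a long RNA of nuclear speckles, measured 762, 886 and 899 CPM in controls A to C and 1969, 1704 and 1832 CPM in Vhl A to C, without overlap (log2 1.11 ± 0.13, edgeR adjusted p = 4.25e-05). Its untreated log2 change was 0.16, and 0.58 without both A libraries. Ckb, the brain creatine kinase that buffers ATP, fell from 9661 ± 241 to 8119.7 ± 224 CPM in DMSO (log2 −0.25 ± 0.03), a small step in a very abundant transcript, and its untreated log2 change was 0.05, and −0.14 without both A libraries.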
